A study of Mus musculus with 4 samples.

Results

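AMPA receptors carry most fast excitatory transmission in the brain, and the number held at a synapse is set by proteins that fold them, escort them to the surface, anchor them and recycle them. Auxiliary subunits such as the TARPs and the cornichons travel with the receptor, whereas PDZ-domain proteins such as GRIP and PICK1 bind its cytoplasmic tail and steer it between the plasma membrane and endosomes. CPEB2 is a cytoplasmic RNA-binding protein that recognises the cytoplasmic polyadenylation element (CPE) in mRNAs and controls their translation in neurons. GRASP1, the product of Gripap1, is cited in the study as a protein whose mRNA is translated under CPEB2 control to keep AMPA receptors at the surface, so the question put to these data was whether Gripap1 and related mRNAs were recovered with CPEB2.

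The set comprised 10 genes of 24185 gene symbols on the array, namely Gripap1, Grip1, Grip2, Pick1, Nsf, Cacng2, Cacng3, Cacng8, Cnih2 and Cnih3. They were chosen by gene symbol among the non-control spots and held 17 of the 55681 probes. Gripap1, Cacng3, Cacng8 and Cnih3 had 1 probe each, 5 genes had 2 and Grip1 had 3. RNA immunoprecipitation (RIP) uses an antibody on beads to pull a protein down with its RNA, and a non-specific IgG gives the background. Cortical and hippocampal tissue came from 8-week-old male C57BL/6 mice with no genetic change named in the labels. In each of 2 experiments the lysate was divided and incubated for 3 h with CPEB2 IgG or control IgG, and 0.2 µg of the recovered RNA was labelled with Cy3 and hybridised to a 1-colour array. The number of mice behind a lysate is not given in the sources used here. The titles, the sample source and the protocol name CPEB2 IgG, whereas a description field of the same samples names CPEB3 IgG, and no value in the arrays can show which antibody was on the beads.

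All 4 arrays lay on 1 slide, between 68.4% and 74.1% of spots were well above background and no spot was saturated. Control IgG arrays held positions 1 and 2 and CPEB2 IgG arrays positions 3 and 4, so position and antibody cannot be told apart. Across probes, arrays of one antibody correlated at 0.974 or more and arrays of different antibodies at 0.930 or less (Pearson's r, a description). Differences are given as log2 of CPEB2 IgG over control IgG after each array was scaled to its 75th percentile, and the median over the 41137 tested probes was -0.20. The same 0.2 µg of RNA was labelled for each array, so a difference compares shares of the recovered RNA and not amounts. Of 28 markers of neurons and 4 other brain cell types, 27 were tested. Summed over the 5 astrocyte markers, the signal was 8628 to 10594 with CPEB2 IgG and 23478 to 32844 with control IgG, and 2 of the 5 were called lower. The 2 were Aldh1l1 (-3.77, with 0.37 at its other probe) and S100b (-1.05). Without a call, Gfap lay below 0 (-0.90, with -1.73 and -1.71 at its other probes), and Gja1 (1.01) and Aqp4 (0.59) lay above 0. Of the 5 microglial markers 1 was higher and 2 lower. None of the 5 oligodendrocyte markers was called, and of the 4 tested endothelial markers 1 was higher and none lower. Summed over the 8 neuronal markers the signal was 114998 to 116572 with CPEB2 IgG and 136430 to 139349 with control IgG, with 1 called in each direction. Read the same way, by the brightest probe, 17.9% of all genes were called higher and 16.3% lower. Their part in the values of the AMPA receptor genes was not tested. Both antibodies of an experiment received the same lysate and so the same cells.

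The probe sequences show the letters that were read as each value, and 30 of the 60 bases are given for the genes with a called probe and for Cnih2, which passed the study's enrichment and brightness thresholds. They are as listed in the array files, read 5′ to 3′, with any CPE letters (TTTTAT or TTTTAAT) or polyadenylation signal letters (AATAAA) in capitals.
Gripap1 A_55_P2315457: cgtgtgtatgtgtgtgagtatgtgtgtaaa
Grip1 A_55_P2164070: ctatagcagtacTTTTATaaagcaggacaa
Grip1 A_55_P1982131: cctgttttgtttttgttttgttctccttcc
Grip1 A_55_P1982127: actgcctttttctctttgtgccaccatgta
Pick1 A_55_P2071977: aaccaaggcagcttcactgatggagaggag
Pick1 A_55_P2156062: acaaactttttgatTTTTATcattgtattc
Nsf A_55_P2126870: ttcttatctggaagatacaaaggccaaatc
Nsf A_55_P2462377: cgttaaaaccttatgaaagatacatatgga
Cnih2 A_55_P1976033: tgacatttgtgacaaaatatgAATAAActa

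Within the 17 member probes, 2 held TTTTAT on the sense strand and none held TTTTAAT. Among all 55615 scaled probes, 4.54% held one or both on that strand, and the 1867 of these that were tested had a median difference of 0.34. All tested probes in the class of 35.0% GC, whatever their letters, also had a median of 0.34. The part of GC content in the median of the probes with CPE letters was not tested. AATAAA was held by 3 member probes, both of Cnih2 and the dim probe of Cacng2, and by 10.1% of all probes. A probe covers a small stretch of an mRNA, so a probe without the letters says nothing of the rest of that mRNA.

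None of the 16 tested member probes was called higher with CPEB2 IgG, against 12.7% of all tested probes. Called lower were 4 of the 16, against 14.8% of all tested probes. These 4 were the only Gripap1 probe and 1 probe each of Grip1, Pick1 and Nsf. At an unadjusted p under 0.05, 3 of the 16 member probes were higher, against 17.6% of all tested probes, and 5 lower, against 23.7%. After scaling, both CPEB2 IgG arrays lay above both control IgG arrays for 7 of the 16, against 26.4% of all tested probes, and below them for 7 of the 16, against 39.2%. The tested member probes had a median of -0.06 and ranged from -2.21 to 0.94, beside the median of -0.20 for all probes. In limma fitted to the brightest probe of each gene alone, Cnih2 and Cnih3 were called higher (adjusted p = 0.0361 and 0.0467), where 21.2% of genes were called higher and 20.4% lower.

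**Figure D1:**
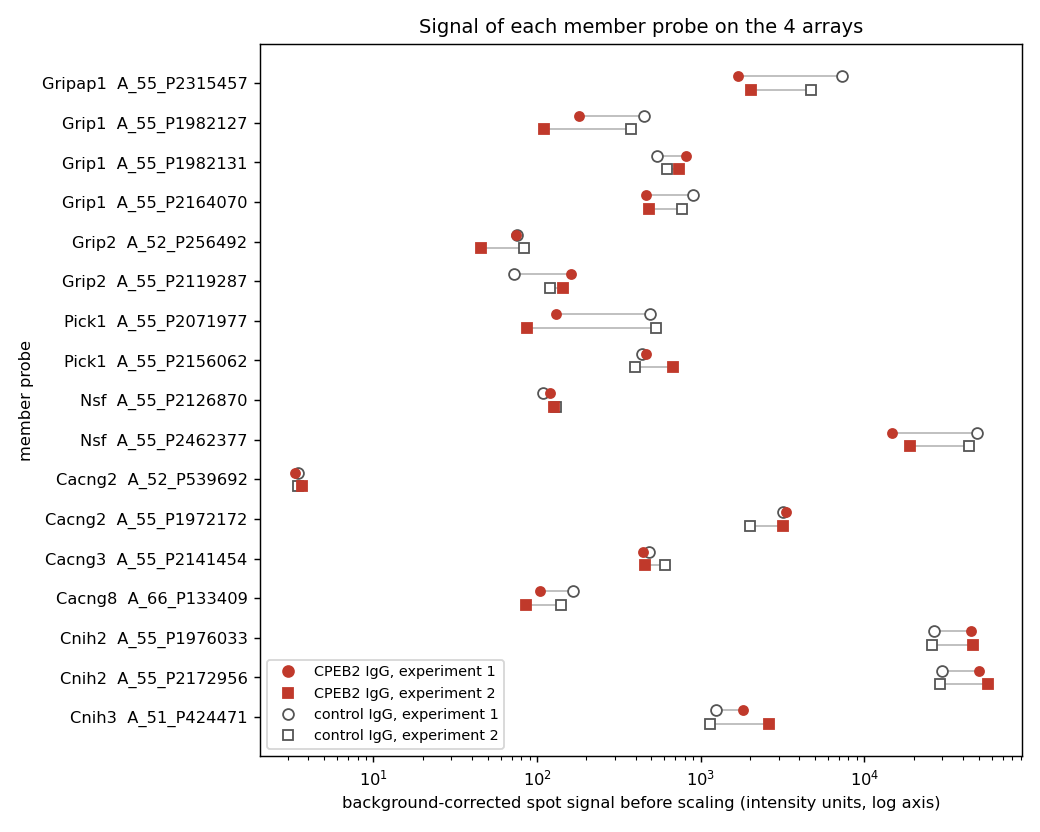
Background-corrected signal of each of the 17 member probes (horizontal log axis, intensity units before scaling), with filled symbols for CPEB2 IgG, open symbols for control IgG, circles for experiment 1 and squares for experiment 2. Gripap1 lies left of its controls in both experiments and both Cnih2 probes and Cnih3 lie right of theirs, whereas the probes of Pick1 and of Nsf do not move together.

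Gripap1 encodes GRASP1, a GRIP-binding protein of recycling endosomes that acts with Rab4 in receptor recycling. Its probe, on chrX:7397601-7397660 (mm9, as for all positions here, plus strand), gave signals of 1697 and 2029 on the CPEB2 IgG arrays and 7284 and 4746 on the control arrays in experiments 1 and 2. Both CPEB2 IgG signals were below both control signals. The scaled log2 difference was -2.02 in experiment 1 and -1.20 in experiment 2, a mean of -1.61 ± 0.58 (SD, n = 2 experiments). This was 3.05-fold lower, with a 95% interval of -2.43 to -0.79 on the log2 scale and an adjusted p of 0.0212 from limma. It stood at percentile 7.35 of all tested probes, and the median of tested probes with like GC content (41.7%) was -0.18.

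The call on Gripap1 was lost in some of the 4 fits that left out 1 array. These fits also did not take the experiment as a block. With all 4 arrays and no block, Gripap1 stayed called (adjusted p = 0.0186 from limma). The cause of the loss was not tested. Gripap1 was at -1.48, -1.74 and -1.33 without CPEB2 IgG replicate 1 or 2 or control IgG replicate 1. The sign was also negative with no scaling between arrays (-1.66) and after spike-in scaling (-1.49). It turned positive only when the arrays were scaled to Gapdh. Gapdh was the reference of the study's RT-qPCR, also in its CPEB2 RIP from hippocampus, where it served as the non-target control. At its brightest probe Gapdh had signals of 48250 and 39694 on the CPEB2 IgG arrays and 253696 and 266689 on the control arrays. It was lower by more than Gripap1, with a difference of -2.52 ± 0.29 (SD, n = 2, adjusted p = 0.00707), and its 6 other probes lay between -4.02 and -2.63. Scaled to Gapdh, a setting chosen after seeing the data that moved the median of all tested probes to 2.32, Gripap1 was higher by 0.91 (adjusted p = 0.0356) and still lay below that median.

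The Gripap1 probe is rich in TG repeats. A stretch of 15 bases was shared with 9 probes of other genes, all of them tested, and these had a median difference of -0.15 and a range of -0.36 to 1.31, with none called in either direction. The part of shared sequence in the Gripap1 value was not tested. The array holds no other probe for this gene, so the value could not be read at a second position of the mRNA.

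GRIP1 and GRIP2 are scaffolds with several PDZ domains that bind the GluA2 and GluA3 tails. The 3 Grip1 probes on the plus strand of chromosome 10 did not share a direction. The last of them downstream, A_55_P1982127 on chr10:119524209-119524268, gave signals of 179.7 and 111 on the CPEB2 IgG arrays and 448 and 377 on the control arrays. Both CPEB2 IgG arrays were lower, and the difference was -1.49 ± 0.36 (SD, n = 2, adjusted p = 0.0202), or 2.81-fold. In the fits that left out 1 array, which did not take the experiment as a block, it lay between -1.84 and -1.14. Its call was lost in some of them.

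The probe A_55_P1982131, which lies 10942 bases upstream on chr10:119513267-119513326, gave 815 and 742 against 537 and 625. Here both CPEB2 IgG arrays were higher, by 0.48 ± 0.29 (SD, n = 2, adjusted p = 0.277). The probe A_55_P2164070 is 707 bases further upstream on chr10:119512560-119512619, is assigned to the RefSeq transcript and holds TTTTAT. It gave 461 and 484 against 898 and 764, a difference of -0.76 ± 0.17 (SD, n = 2, adjusted p = 0.104). It was called lower after centring within classes of GC, by -1.53 (adjusted p = 0.0249), and after normexp correction, by -0.71 (adjusted p = 0.0164). The other 2 probes are assigned to separate Ensembl transcript models. limma's diffSplice, which tests a probe against the other probes of its gene, called 26.1% of all probes it tested. A_55_P1982131 shares a stretch of 15 bases with 16 probes of other genes, and the 15 of these that were tested had a median of 0.80, a range of -2.68 to 2.90 and 3 called higher and 1 lower. The part of shared sequence in its value was not tested. diffSplice set A_55_P1982131 apart by 1.60 (adjusted p = 0.00957) and A_55_P1982127 by -1.35 (adjusted p = 0.0157) from the rest of Grip1. The second of these contrasts was not called after centring within classes of GC (-0.54, adjusted p = 0.177) or after spike-in scaling (adjusted p = 0.0680). After GC centring diffSplice instead set A_55_P2164070 apart, by -1.15 (adjusted p = 0.0254). The GC content was 53.3% for A_55_P1982127, 38.3% for A_55_P1982131 and 35.0% for A_55_P2164070. In the fits that left out 1 array, the second contrast lay between -1.68 and -1.02 and the first between 1.37 and 1.83. Calls of both were lost in some of these fits. The position of the probes in exons or untranslated regions is not given in the sources used here.

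The Grip2 probes were dim. A_52_P256492 on chr6:91727376-91727435 (minus strand) gave 74.0 and 45.2 on the CPEB2 IgG arrays and 75.5 and 83.3 on the control arrays, a difference of -0.40 ± 0.65 (SD, n = 2, adjusted p = 0.427). The 2 experiments went opposite ways at this probe, 0.05 and -0.86. A_55_P2119287, on chr6:91712358-91712417 and 15018 bases downstream, gave 161 and 144 against 72.4 and 121. Both CPEB2 IgG arrays were higher there, but the 2 experiments differed as 1.23 and 0.28, and the mean of 0.76 ± 0.68 (SD, n = 2) was not called (adjusted p = 0.163). It was called after median centring, at 0.98 (adjusted p = 0.0441), and when scaled to Gapdh. The contrast between the probes was 1.16 (adjusted p = 0.137 from diffSplice).

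PICK1 joins a PDZ domain to a membrane-bending BAR domain and takes part in internalisation of GluA2-containing receptors. Its upstream probe, A_55_P2071977 on chr15:79079276-79079335 (plus strand), gave signals of 131 and 86.7 on the CPEB2 IgG arrays and 490.5 and 534 on the control arrays. This was the lowest difference among the members, -2.21 ± 0.55 (SD, n = 2), 4.63-fold lower with an adjusted p of 0.00991. The downstream probe, A_55_P2156062 on chr15:79086401-79086460, gave 466 and 673 against 439 and 395. Its CPEB2 IgG arrays lay above the controls in both experiments, by 0.17 and 0.79, and the mean of 0.48 ± 0.44 (SD, n = 2) was not called (adjusted p = 0.299).

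The Pick1 probes lie 7125 bases apart and differed from each other by 2.69 on the log2 scale (adjusted p = 0.00874 from diffSplice). That contrast was called in all 18 fits that were run, with adjusted p-values from 0.00235 to 0.0437. The upstream probe has 55.0% GC and the downstream one 35.0%, and all tested probes in those GC classes had medians of -0.52 and 0.34. After centring within classes of GC the differences were -1.86 and -0.30 and the contrast between them was 1.56 (adjusted p = 0.0170). The downstream probe is assigned to a cDNA clone record and not to the RefSeq transcript, and it holds TTTTAT.

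NSF is the ATPase that takes SNARE complexes apart after membrane fusion and binds the GluA2 tail. The bright Nsf probe, A_55_P2462377 on chr11:103683921-103683980 (minus strand), gave signals of 14714 and 18897 on the CPEB2 IgG arrays and 49058 and 43538 on the control arrays. Both CPEB2 IgG arrays were lower, by 1.65 and 1.18 on the log2 scale. The mean of -1.42 ± 0.33 (SD, n = 2) was 2.67-fold lower (adjusted p = 0.0226).

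The dim Nsf probe, A_55_P2126870 on chr11:103770740-103770799, is assigned to an Ensembl model 86819 bases upstream. It gave 119 and 126 against 109 and 130, so the groups overlapped, and its difference was 0.10 ± 0.16 (SD, n = 2, adjusted p = 0.830). The probes differed by 1.51 (adjusted p = 0.0224 from diffSplice). Scaling to spike-in probes or Gapdh left that contrast uncalled, with adjusted p-values of 0.0575 and 0.0576. In the fits that left out 1 array, which did not take the experiment as a block, the contrast lay between 1.30 and 1.73. The bright probe lay between -1.60 and -1.24 there. Calls of both were lost in some of these fits.

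Over the 11 tested probes of genes with more than 1 tested probe, 6 differed from the rest of their gene, against 26.1% of all probes so tested, 2 each in Grip1, Pick1 and Nsf. In a gene with 2 tested probes, such as Pick1 and Nsf, both probes carry the same contrast with opposite signs. The 6 are therefore not separate tests, and they come from Grip1, Pick1 and Nsf alone. The brightest probe of Grip1 and of Pick1 was not called, so a reading by the brightest probe alone shows Gripap1 and Nsf as the genes called lower. In a fit to the mean over each gene's tested probes the 2 called lower were Gripap1 and Pick1 (adjusted p = 0.0385), and Nsf was at -0.66 (adjusted p = 0.0761).

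**Figure D2:**
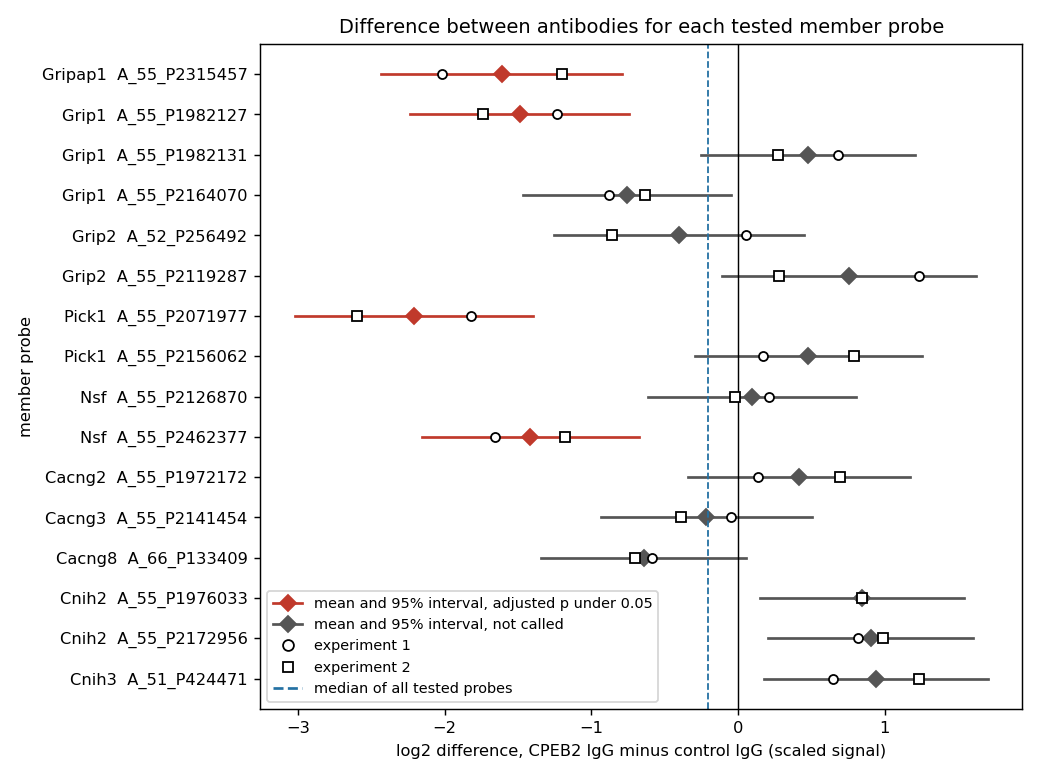
Log2 difference between CPEB2 IgG and control IgG (horizontal axis) for each of the 16 tested member probes, with circles and squares for the 2 experiments, diamonds for their mean and bars for limma's 95% interval. The probes called lower (red) belong to Gripap1, Grip1, Pick1 and Nsf, and the Cnih2 and Cnih3 intervals lie above 0 without an adjusted p under 0.05.

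Cacng2, Cacng3 and Cacng8 encode the TARPs stargazin, gamma-3 and gamma-8, which bring AMPA receptors to the surface and slow their gating. The Cacng2 probe A_55_P1972172 on chr15:77825290-77825349 (minus strand) gave signals of 3313 and 3184 on the CPEB2 IgG arrays and 3187 and 1998 on the control arrays. After scaling both CPEB2 IgG arrays lay above both controls, and the difference was 0.42 ± 0.39 (SD, n = 2, adjusted p = 0.354). The other Cacng2 probe, with 20.0% GC, was not well above background on any array (signals of 3.31 to 3.64) and was not tested.

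The Cacng3 probe on chr7:129912275-129912334 (plus strand) gave 444 and 454 on the CPEB2 IgG arrays and 485 and 603 on the control arrays. Both CPEB2 IgG arrays were lower, by 0.05 and 0.39 on the log2 scale, with a mean of -0.22 ± 0.24 (SD, n = 2, adjusted p = 0.618) that was 0.011 after median centring. The Cacng8 probe on chr7:3415260-3415319 (plus strand) gave 104 and 85.0 against 165 and 141, a difference of -0.64 ± 0.09 (SD, n = 2, adjusted p = 0.145). No TARP of the set was called, and the 95% intervals of -0.34 to 1.18 for Cacng2, -0.94 to 0.50 for Cacng3 and -1.34 to 0.05 for Cacng8 leave room for a change of either sign.

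Cnih2 and Cnih3 encode cornichons, which help AMPA receptors leave the endoplasmic reticulum and stay with them at the surface. The Cnih2 probe A_55_P1976033 on chr19:5092882-5092941 (minus strand) gave signals of 44957 and 46071 on the CPEB2 IgG arrays and 26518 and 26062 on the control arrays. A_55_P2172956 on chr19:5092871-5092927 gave 49943 and 56800 against 29968 and 29124. For both probes the CPEB2 IgG arrays were well separated from the controls and the replicates lay close together.

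The Cnih2 differences were 0.84 and 0.84 at the first probe and 0.82 and 0.99 at the second, with means of 0.84 ± 0.0004 and 0.90 ± 0.12 (SD, n = 2), or 1.80-fold and 1.87-fold. Their adjusted p-values were 0.0762 and 0.0657, and 0.0440 and 0.0406 without the experiment as a block. The 2 probes share 46 bases, so they are one measurement of the mRNA read again rather than separate positions. The Cnih3 probe on chr1:183389705-183389764 (plus strand) gave 1824 and 2619 on the CPEB2 IgG arrays and 1234 and 1133 on the control arrays. It was higher in both experiments, by 0.65 and 1.23, with a mean of 0.94 ± 0.41 (SD, n = 2), or 1.92-fold (adjusted p = 0.0737).

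The study took as CPEB2 targets those transcripts that were over 1.5-fold enriched, gave signals over 1000 before scaling and held a CPE in the 3′ untranslated region. Enrichment and brightness were applied here without a test, on the mean of both experiments and the brighter CPEB2 IgG array. Of the 6 member probes over 1000, 3 were over 1.5-fold enriched. These were both Cnih2 probes and Cnih3, against 41.7% of all probes of that brightness. None was over 2-fold enriched under the 75th-percentile scaling, against 31.3% of probes of that brightness, whereas both Cnih2 probes were over 2-fold after quantile normalisation (1.17 and 1.22 on the log2 scale) and both with Cnih3 after median centring (1.07, 1.13 and 1.17). Cnih3 was also over 2-fold after GC centring, together with Cnih2 A_55_P1976033 (1.001). After spike-in scaling it was over 2-fold together with the other Cnih2 probe, A_55_P2172956 (1.03). All 3 were over 2-fold when scaled to Gapdh. The presence of a CPE outside the probes was not analysed here.

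**Figure D3:**
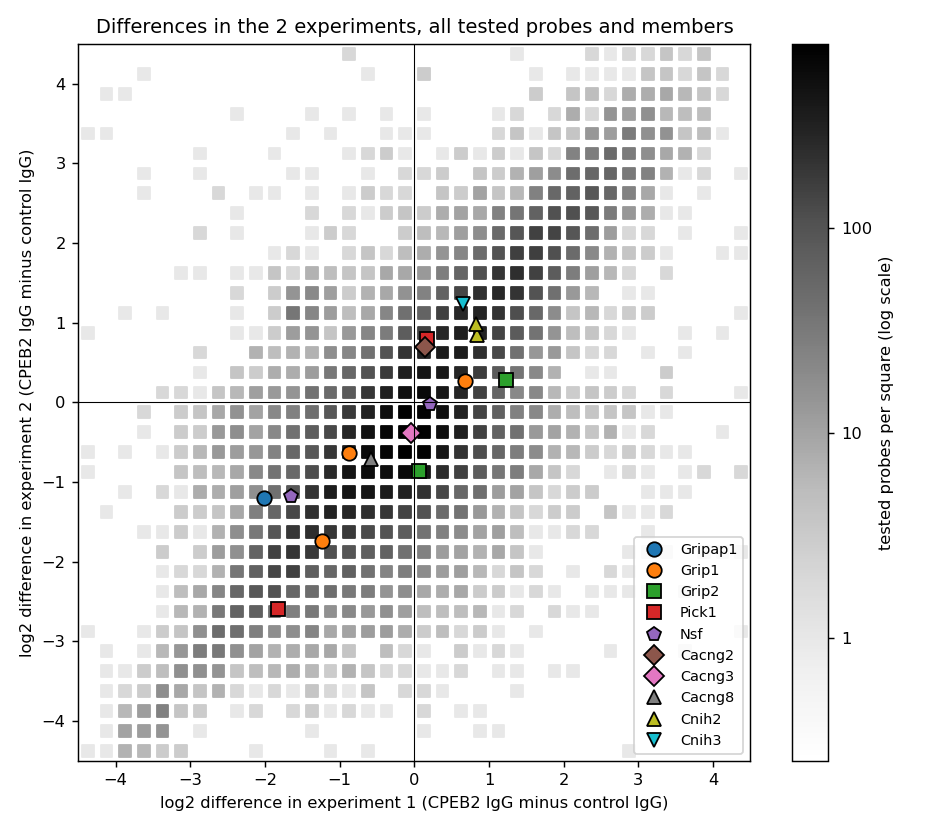
Log2 difference between CPEB2 IgG and control IgG in experiment 1 (horizontal axis) and experiment 2 (vertical axis), with grey squares shaded by the number of tested probes and coloured symbols for the tested member probes (73 of 41137 probes lie outside the axes). Both experiments gave a negative value for 7 tested member probes and the lowest pair belongs to the upstream Pick1 probe, whereas Cnih2 and Cnih3 lie in the upper right.

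Between the 2 experiments the differences of all tested probes correlated at 0.75, a description over probes that share arrays. Of the 17 member probes, 7 were below 0 in both experiments and 8 above 0 in both, 1 of the 8 being the dim Cacng2 probe that was not tested.

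The other genes of the AMPA receptor pathway were read by their brightest probe, with 17.9% of all genes called higher and 16.3% called lower by that rule, around a median of -0.11. The 10 members had a median of 0.45, with 2 called lower. Of the 9 other TARP, cornichon, Shisa and Gsg1l genes, 4 were higher and 2 lower, and the median was 0.89. Whether each of these 9 acts on AMPA receptors was not examined here. Cacng7, another TARP, was higher by 1.81 ± 0.34 (SD, n = 2, adjusted p = 0.0125). Cnih4 was higher by 1.73 ± 0.08 (SD, n = 2, adjusted p = 0.0120), and Cacng4 and Cnih1 (Cnih on the array) were the remaining 2 that were higher, by 1.54 and 1.05. Shisa9, also known as CKAMP44, fell by 1.15 on the log2 scale (adjusted p = 0.0340) and Gsg1l by 1.10 (adjusted p = 0.0399). Whether Cacng7 and Cacng4 differed from the TARPs of the set was not tested.

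Of the 4 receptor subunits, 3 were called higher. Gria1 differed by 0.65 ± 0.35 (SD, n = 2, adjusted p = 0.161). Gria2, Gria3 and Gria4, which encode GluA2 to GluA4, were called higher, by 1.94 ± 0.11 (adjusted p = 0.00969), 2.27 ± 0.32 (adjusted p = 0.00808) and 1.10 ± 0.00029 (SD, n = 2, adjusted p = 0.0382). At their other probe they gave 1.22, 0.83 and 0.47.

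Among 15 genes of receptor biogenesis, assembly and clustering, 9 were higher and 1 lower, with a median of 1.12. Porcn, an acyltransferase of the endoplasmic reticulum found in AMPA receptor complexes, was higher by 2.82 ± 0.60 (SD, n = 2, adjusted p = 0.00717). Lrrtm4, a postsynaptic adhesion protein, was higher by 2.56 ± 0.36 (SD, n = 2, adjusted p = 0.00707), with 0.65 at its other tested probe. Cpt1c, which binds GluA1 in the endoplasmic reticulum, fell by 1.79 on the log2 scale (adjusted p = 0.0159). For Nptxr the array lists the symbol of the overlapping gene Npcd, and the other probe lay at -1.04 beside 1.11 at the brightest. Its call among the 9 is uncertain for both reasons.

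Among 26 genes of endocytosis, recycling and exocytosis, the processes in which GRASP1, PICK1 and NSF act, 4 were higher and 7 lower, with a median of -0.43. Stx4a, a syntaxin of spine exocytosis, was higher by 2.90 ± 0.14 (SD, n = 2, adjusted p = 0.00678), and Rab11fip2, an adaptor of Rab11 and myosin V, by 1.28 ± 0.08 (adjusted p = 0.0253). Snap47, a SNARE used in receptor insertion, fell by 3.00 on the log2 scale (adjusted p = 0.00678) and Dnm2, a dynamin, by 2.39 (adjusted p = 0.00710). Among 23 scaffold and motor genes, 7 were higher and 3 lower, with a median of 0.33. Efnb1, an ephrin, and Icam5, a dendritic adhesion protein, were higher by 2.91 and 2.40 (adjusted p = 0.00678 and 0.00715). Lin7b, a PDZ scaffold, and Epb4.1l1, the band 4.1N linker of GluA1, fell by 2.74 and 1.48 (adjusted p = 0.00678 and 0.0174). Epb4.1l1 gave -0.84 at its other probe.

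**Figure D4:**
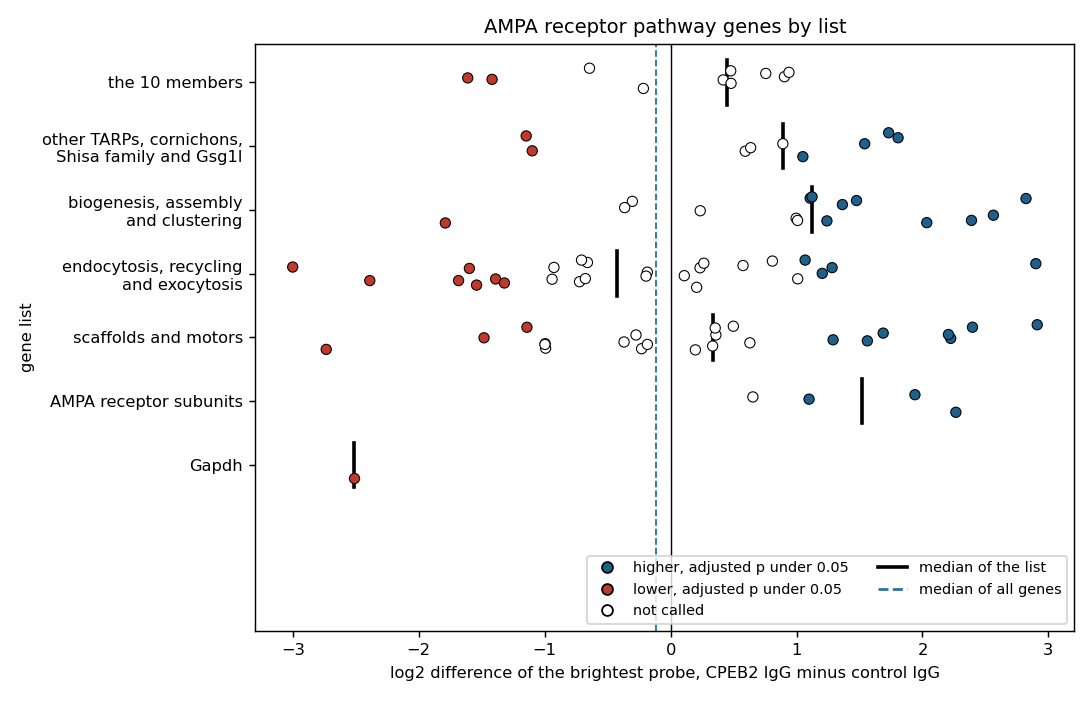
Log2 difference of the brightest probe of each gene between CPEB2 IgG and control IgG (horizontal axis) by gene list, with filled points for genes called higher (blue) or lower (red) by limma, open points for genes not called, and black bars for the median of each list. The members hold 2 genes called lower and none called higher, and Gapdh lies at -2.52.

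The signs of the 4 probes called lower held under quantile normalisation, median centring, no scaling, spike-in scaling, GC centring, another percentile and normexp background correction, and all stayed past the threshold there. They turned positive when Gapdh was set to 0, where 15 of the 16 tested probes were called higher together with most probes of the array. Cnih2 passed the threshold at both probes after quantile normalisation, median centring and normexp correction, and Cnih3 after median centring and normexp correction. In each of the settings named here the Cnih2 and Cnih3 differences were positive.

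**Figure D5:**
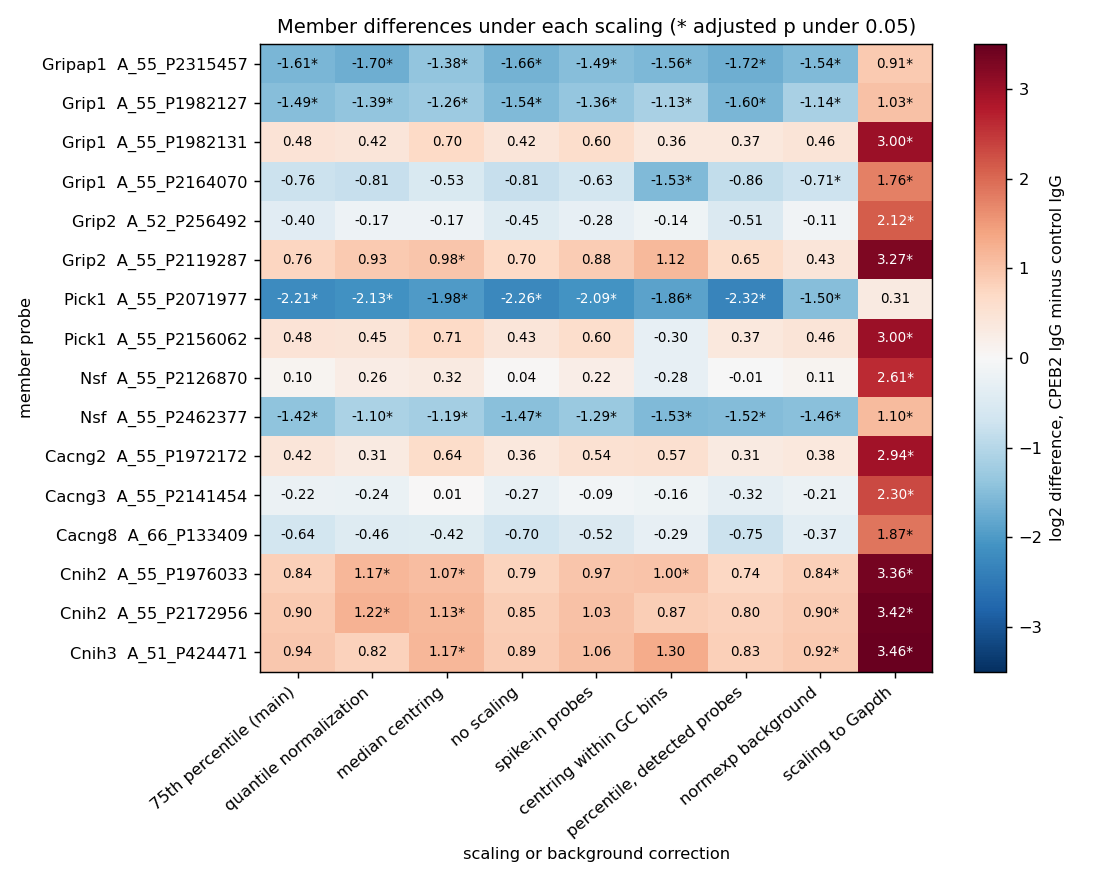
Log2 difference between CPEB2 IgG and control IgG for each tested member probe (rows) under 9 scalings or background corrections (columns), with red for higher, blue for lower and an asterisk for an adjusted p under 0.05. The Gripap1 value lies between -1.72 and -1.38 in the first 8 columns and at 0.91 when scaled to Gapdh.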

How the data were processed

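RIP-microarray data covered 4 SurePrint G3 Mouse GE 8x60K arrays, 2 per antibody, from 2 experiments in which lysate was divided between antibodies. The authors deposited background-corrected spot intensities from Agilent Feature Extraction 10.5.1.1, without scaling between arrays. Coordinates and symbols are those of the array annotation (mm9).

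Control spots and spots that the scanner software marked as uneven or outlying were removed, repeated spots were averaged, and log2 intensities were scaled to each array's 75th percentile over 55615 probes. Probes well above background on at least 2 arrays were tested with limma 3.58.1 (R 4.3.3), with experiment as a block (total df 5.44 after eBayes) and Benjamini-Hochberg adjustment over 41137 probes at 0.05. diffSplice compared probes within genes. The arrays of one experiment deviated together (correlation 0.206), and the pairing comes from the study's methods. An exact permutation test of 2 arrays against 2 cannot go below p = 0.333, and the number of arrays limits the precision.

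The scripts were tested on simulated data. All member probes were reported. In each other list, up to 2 called genes with the largest difference in each direction were named, plus the AMPA receptor subunits and Gapdh, and Cacng4 and Cnih1 were named after their values were seen. Members and lists were chosen with earlier results of these data known. Python 3.11.15 with numpy 2.4.6, pandas 2.3.3 and matplotlib 3.10.9 was used for tables and figures. Alternatives were other scalings, background corrections, filters, fits and arrays left out. The fits with an array left out did not take experiment as a block.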

Additional observations from a re-analysis of the deposited data

How the results depend on the processing

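With 2 arrays per antibody and 1 residual degree of freedom, calls lean on limma's prior spread, and slide position could not be run as a block because each antibody had its own positions. Over 272 repeats of the 16 single-probe differences, 217 kept their direction and side of the threshold, 30 gained a call, 12 lost one and 13 changed sign.

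Instead of 0 of the 16 member probes called higher (12.7% of all probes), there were 4 after median centring (18.2% of all), 2 after quantile normalisation (15.3%), 3 after normexp correction (16.7%), 3 with an intensity trend (17.6%), 3 among probes well above background on all 4 arrays (17.9%), 1 after GC centring (10.1%) and 2, both of Cnih2, without the replicate block (13.2%). The 4 called lower became 5 after GC centring, after normexp correction and with an intensity trend (14.9%, 18.5% and 21.1% of all), and stayed 4 without the block. Fitted to genes rather than probes, by brightest probe or by the mean over probes, 2 member genes were higher and 2 lower, where the probe fit gives 0 and 2, but the lower pair was Gripap1 and Nsf by brightest probe and Gripap1 and Pick1 by the mean. Median centring made higher calls 57.3% of all calls, compared with 46.2%. Spike-in scaling left 3 probes that differed from the rest of their gene, compared with 6. At a mean fold over 2, 0 member probes passed. With no filter on dim probes, 0 probes of the whole array were called higher and 0 lower by limma, members included, and Gripap1 stayed at -1.61 (adjusted p = 0.121). At an unadjusted p under 0.05 that fit gave 7020 higher and 9073 lower, with 3 and 5 among the members. Scaling to Gapdh, chosen after seeing the data, gave 38557 probes called higher (99.5% of calls) and 175 lower, with 15 and 0 member probes, and 6 over the enrichment and brightness thresholds.

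Signs that changed under Gapdh scaling were those of Gripap1 (0.91), Grip1 A_55_P1982127 (1.03) and A_55_P2164070 (1.76), Grip2 A_52_P256492 (2.12), Pick1 A_55_P2071977 (0.31), Nsf A_55_P2462377 (1.10), Cacng3 (2.30) and Cacng8 (1.87). Under other settings they were those of Cacng3 after median centring (0.011), Pick1 A_55_P2156062 after GC centring (-0.30), and the dim Nsf probe after GC centring (-0.28), with the percentile taken over detected probes (-0.012) and without control IgG replicate 1 (-0.062).

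Leaving out 1 array at a time gave 0 to 1 member probes higher, 1 to 3 lower, 2 to 6 that differed within their gene, 3 to 4 over the enrichment and brightness thresholds, and 2741 to 5010 probes higher and 2542 to 6332 lower over the array. Gripap1 then ranged from -1.89 to -1.33 and the dim Nsf probe from -0.062 to 0.25. The upstream Pick1 probe ranged from -2.51 to -1.915 in these fits and Grip1 A_55_P1982127 from -1.84 to -1.14. The cause of these changes was not tested.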
